A study of Mus musculus with 2 samples.

Results

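The 10 genes described here encode the insulin and IGF signalling chain from receptor to transcription factor: the receptors Insr and Igf1r, the substrates Irs1 and Irs2, the PI 3-kinase subunits Pik3ca and Pik3r1, the kinases Akt1 and Akt2, and the transcription factors Foxo1 and Foxo3. They were taken by symbol from the 38087 Ensembl genes of each deposited table, and all 10 were found and lay above the floor of 1 RPKM in both libraries. RPKM is the number of reads per kilobase of gene and per M reads of the library. Parietal cells, which secrete acid in the glands of the stomach, were sorted from C57BL/6 mice fed a high fat diet (HFD) and from C57BL/6 mice of the control group. Neither the diets' composition nor the age and number of the mice nor the sorting marker is given in the labels. There was 1 library for HFD and 1 for the control, so no difference could be tested, and every comparison below is between these 2 libraries. Estimated depth was 25.49 M reads for HFD and 9.84 M for the control, and the 10 genes rested on about 839 to 7858 reads in HFD and 383 to 3451 in the control. The study set the transcripts of the HFD parietal cells against those of the control parietal cells.

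Insulin binds the insulin receptor and IGF1 and IGF2 bind the IGF1 receptor, both tyrosine kinases that phosphorylate IRS proteins. IRS proteins recruit PI 3-kinase, whose lipid product brings AKT to the membrane, where it is activated. AKT phosphorylates FOXO transcription factors, which then leave the nucleus, and active FOXO is known to raise transcription of Insr and Irs2 in mouse cells. The mTOR complexes act both upstream and downstream of AKT.

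At the deposited scale, the insulin receptor gene was the one of the 10 that stood higher in the HFD library beyond counting error. It stood at 22.4 RPKM against 13.3 RPKM in the control library. Its close relative Igf1r was lower, at 16.4 RPKM in HFD against 20.9 RPKM in the control. Irs2, Pik3r1 and Foxo3 had the lowest ratios of HFD over control, at 0.680, 0.673 and 0.650. Akt2 and Pik3ca were near equal in both libraries. No member differed by more than 2-fold in either direction on the log2(RPKM + 1) scale. Over all 16037 measured genes, those above the floor in either library, 12.5% were over 2-fold higher in HFD and 23.9% over 2-fold lower. These shares include genes not above the floor in a library, which pass 2-fold by construction. The closer background is the 9997 protein-coding genes listed in both libraries, as all 10 members are. Of these, the RPKM ratio passed 2-fold upward in HFD for 7% and downward for 12.5%. No member passed 2-fold on that ratio either. These are bulk libraries, so a change in the RNA of each cell and a change in the share of cells of a type cannot be told apart.

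Markers fixed for the labelled cell type were present. The 17 parietal markers, led by Atp4a and Atp4b of the proton pump, summed to 14295 RPKM in HFD and 11436 RPKM in the control, with 14 higher in HFD. They include the intrinsic factor gene Gif (397 RPKM in HFD against 494 RPKM in the control). It had also been placed in the chief cell list, under its other symbol Cblif, and was not matched there. Markers of other cells were also abundant. The 4 chief cell genes measured (led by Pgc and Chia1) summed to 48186 against 106338 RPKM, with 1 higher in HFD. Most of both sums was Pgc (45624 against 102292 RPKM). The 8 pit cell genes (Gkn1, Gkn2) summed to 36989 against 15024 RPKM, with 6 higher in HFD. Most of that difference lay in Gkn1 (21736 against 5021 RPKM). The 4 neck cell genes (Tff2, Muc6) summed to 7497 against 8518 RPKM, all of them lower in HFD. Lower in HFD were the sums for gastric endocrine cells (Ghrl, Chga; 1213 against 8302 RPKM), pancreatic acinar cells (Clps, Ctrb1; 1831 against 13741 RPKM), smooth muscle (Tagln, Acta2; 27.6 against 186 RPKM), fibroblasts (Col1a1, Col3a1; 55.6 against 165 RPKM), proliferating cells (Mcm6, Plk1; 71.5 against 189 RPKM), erythroid cells (Hbb-bs, Hbb-bt; 22.5 against 64.8 RPKM) and endothelium (Pecam1, Kdr; 4.61 against 17.3 RPKM). In these lists 1 of 8 gastric endocrine and 1 of 8 proliferating genes were higher, and the other measured genes were lower. Most of both acinar sums was Clps (1790 against 12989 RPKM), and 3 of the 12 acinar genes were listed in both libraries. The sum for leukocytes (Cd74, H2-Aa) was higher in HFD, at 37.0 against 11.2 RPKM, with 5 of 6 measured genes higher. The adipocyte sum was too (89.3 against 63.5 RPKM), through Lpl (74.3 against 42.3 RPKM), while Fabp4 was lower (6.03 against 16.7 RPKM) and the list's median was -0.27; the defining leukocyte gene Ptprc and the defining adipocyte genes Adipoq and Plin1 were listed at 0 in both. Of 8 islet markers 4 were measured (led by Gcg and Pdx1), with a sum of 11.2 against 9.30 RPKM. The part of these markers in the results below was not tested.

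The IRS genes are shown by their promoter windows because both carry the letters through which Irs2 is known to be controlled in mouse liver, where FOXO1 acts on a TGTTT-type sequence and TFE3 on a neighbouring E-box, CACGTG. The windows run from 250 bases before to 50 bases after the RefSeq start site on GRCm38.p6, and both genes lie on the minus strand (Irs1, chr1:82291390-82291689; Irs2, chr8:11008880-11009179). Capitals mark CACGTG and the FOXO core TGTTT or its reverse complement AAACA.
Irs1: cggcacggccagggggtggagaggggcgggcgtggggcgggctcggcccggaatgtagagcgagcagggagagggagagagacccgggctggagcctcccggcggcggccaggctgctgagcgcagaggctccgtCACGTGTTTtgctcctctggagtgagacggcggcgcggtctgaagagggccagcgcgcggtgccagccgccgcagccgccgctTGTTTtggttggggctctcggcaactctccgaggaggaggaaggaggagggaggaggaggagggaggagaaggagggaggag
Irs2: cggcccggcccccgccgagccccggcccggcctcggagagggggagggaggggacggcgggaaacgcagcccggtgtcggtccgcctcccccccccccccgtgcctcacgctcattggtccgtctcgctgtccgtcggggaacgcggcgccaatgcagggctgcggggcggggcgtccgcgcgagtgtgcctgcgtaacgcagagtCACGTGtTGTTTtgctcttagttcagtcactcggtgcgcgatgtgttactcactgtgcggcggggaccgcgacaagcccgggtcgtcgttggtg
In the Irs2 window CACGTG starts at position -44 and TGTTT at -37, counted from the start site. In the Irs1 window CACGTG starts at -115 and overlaps the TGTTT that starts at -111, and another TGTTT starts at -32. CACGTG, which reads the same on both strands, is present in 7.15% of all 32851 promoter windows of this length, and the core on either strand in 50.5%. The arrangement of a core match starting within 10 bases of the start of CACGTG was searched for after these sequences had been seen; it was found in 117 windows, or 0.356%. The longer FOXO letters GTAAACA or TGTTTAC, present in 3.65% of windows, are in neither. These are matches of letters, not evidence of binding.

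The ratios of the receptors lay on opposite sides of 1. Insr (ENSMUSG00000005534, chromosome 8, 3122061 to 3279617, mm10), the receptor tyrosine kinase for insulin, rested on about 7858 reads in HFD and 1799 in the control. Its ratio of HFD over control was 1.68, with an approximate 95% interval for counting error of 1.60 to 1.77. This ratio was above that of 87.1% of the 9997 protein-coding genes listed in both libraries. Igf1r (ENSMUSG00000005533, chromosome 7, 67952827 to 68233668), the receptor for IGF1 and IGF2, rested on about 7021 and 3451 reads and had a ratio of 0.785 (0.753 to 0.818). In the HFD library Insr was thus 1.37 times as high as Igf1r, whereas in the control library it stood at 0.637 times Igf1r. The change in this proportion, 2.15-fold (2.01 to 2.29), is independent of how the libraries are scaled to each other. The tables give 1 value per gene, so isoforms of the receptors are not distinguished.

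**Figure D1:**
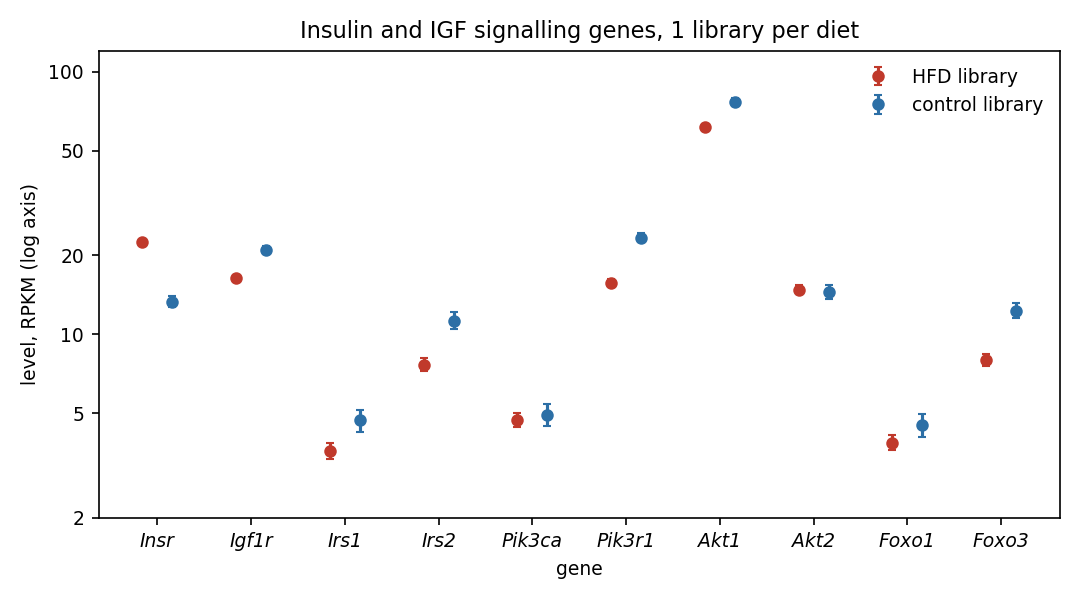
Level of each of the 10 genes in RPKM (log axis) in the HFD library (red) and the control library (blue), 1 library each; bars are 95% intervals for counting error. Insr stands at 22.4 RPKM in HFD against 13.3 in the control, Igf1r at 16.4 against 20.9, and Akt1 is the highest in both.

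The substrates were both lower in HFD. Irs2 (ENSMUSG00000038894, chromosome 8, 10984681 to 11008458), an adaptor that links the receptor to PI 3-kinase and is prominent in liver and islets, stood at 7.66 RPKM in HFD against 11.3 RPKM in the control, a ratio of 0.680 (0.619 to 0.747). Irs1 (ENSMUSG00000055980, chromosome 1, 82233101 to 82291416), the paralog prominent in muscle and fat, stood at 3.60 against 4.70 RPKM, a ratio of 0.766 (0.682 to 0.864). Irs2 was therefore the more abundant substrate in each library, 2.13 times Irs1 in HFD and 2.40 times in the control. The change in that proportion, 0.887-fold, had an interval that includes 1 (0.764 to 1.03). The value of Irs1 is uncertain because 30.9% of its exon bases are also exon of Gm9747 on the opposite strand, which was listed at 4.18 RPKM in HFD and 1.19 RPKM in the control. Without strand in the counting, reads of these genes cannot be told apart. The antisense gene 9530052E02Rik shares 2.56% of the Irs2 exon bases and was listed at 0 in both.

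The PI 3-kinase subunits differed from each other. Pik3r1 (ENSMUSG00000041417, chromosome 13, 101680563 to 101768217), the p85 regulatory subunit that docks on IRS proteins, stood at 15.7 RPKM in HFD against 23.3 RPKM in the control, a ratio of 0.673 (0.639 to 0.709). Pik3ca (ENSMUSG00000027665, chromosome 3, 32397671 to 32468486), the p110-alpha catalytic subunit, stood at 4.72 against 4.92 RPKM, a ratio of 0.960 whose interval includes 1 (0.858 to 1.07). Pik3r1 exceeded Pik3ca 3.33 times in HFD and 4.75 times in the control, a 0.701-fold change (0.621 to 0.792).

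The kinases were led by Akt1 (ENSMUSG00000001729, chromosome 12, 112653821 to 112674884), the broadly expressed family member, at 61.7 RPKM in HFD against 76.6 RPKM in the control, a ratio of 0.806 (0.772 to 0.841). Akt2 (ENSMUSG00000004056, chromosome 7, 27591552 to 27640826), the member most tied to glucose uptake in muscle and fat, stood at 14.8 against 14.5 RPKM, a ratio of 1.02 (0.948 to 1.10). Akt1 exceeded Akt2 4.18 times in HFD and 5.29 times in the control. Set as Akt2 over Akt1, this proportion was 1.26-fold higher in HFD (1.16 to 1.38).

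Both FOXO factors were lower in HFD. Foxo3 (ENSMUSG00000048756, chromosome 10, 42181841 to 42276755) stood at 7.98 RPKM in HFD against 12.3 RPKM in the control, the lowest ratio of the 10 at 0.650 (0.598 to 0.706). Foxo1 (ENSMUSG00000044167, chromosome 3, 52268336 to 52353221), the main FOXO factor of insulin action in liver, stood at 3.86 against 4.50 RPKM, a ratio of 0.859 (0.762 to 0.973). Foxo3 exceeded Foxo1 2.07 times in HFD and 2.73 times in the control, a 0.756-fold change (0.654 to 0.875). The antisense gene Gm20402 covers 7.78% of the Foxo1 exon bases and was listed at 0 in both libraries.

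**Figure D2:**
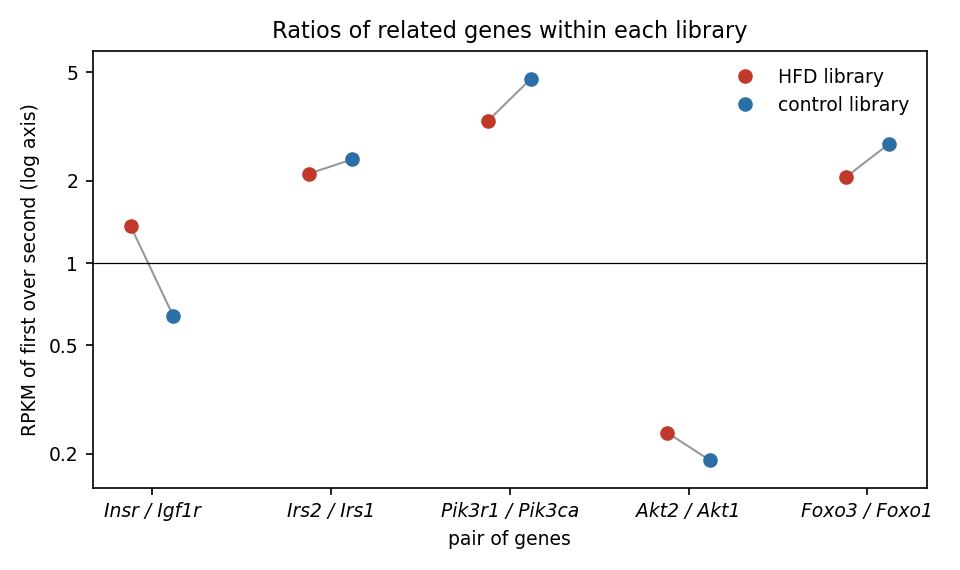
RPKM of the first gene over that of the second (log axis) for 5 pairs of related genes, in the HFD library (red) and the control library (blue), 1 library each. Insr over Igf1r crosses 1, at 1.37 in HFD against 0.637 in the control; the other pairs stay on the same side of 1.

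The order of levels was led by Akt1 in both libraries, which lay above 95.8% of the listed protein-coding genes in HFD and 97.0% in the control. Insr was in place 2 in HFD, against place 5 in the control, and lay above 83.2% and 71.8% of coding genes. In HFD it was followed by Igf1r, Pik3r1, Akt2, Foxo3, Irs2, Pik3ca, Foxo1 and Irs1. In the control the order after Akt1 was Pik3r1, Igf1r, Akt2, Insr, Foxo3, Irs2, Pik3ca, Irs1 and Foxo1. Counting intervals overlapped in HFD between Igf1r and Pik3r1, Pik3r1 and Akt2, Foxo3 and Irs2, and Foxo1 and Irs1. In the control they overlapped along the runs of Akt2, Insr, Foxo3 and Irs2, and of Pik3ca, Irs1 and Foxo1. With 2 libraries there is 1 ratio for each gene, so no gene was named for a similar pattern.

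As a group, 8 of the 10 genes were lower in HFD and 2 were higher. Among protein-coding genes listed in both libraries 52.2% were lower and 47.8% higher. At the deposited scale the counting interval lay wholly below 1 for 7 genes and wholly above 1 for Insr. For coding genes at large these shares were 42.1% and 37.8%, so an interval apart from 1 is common in this comparison. The median log2 RPKM ratio of the 10 was -0.33, beside -0.04 for the coding genes, whose quartiles were -0.57 and 0.43. Pik3r1 and Foxo3 lay just under that lower quartile, Irs2 just above it, and Insr, at 0.75, above the upper one.

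**Figure D3:**
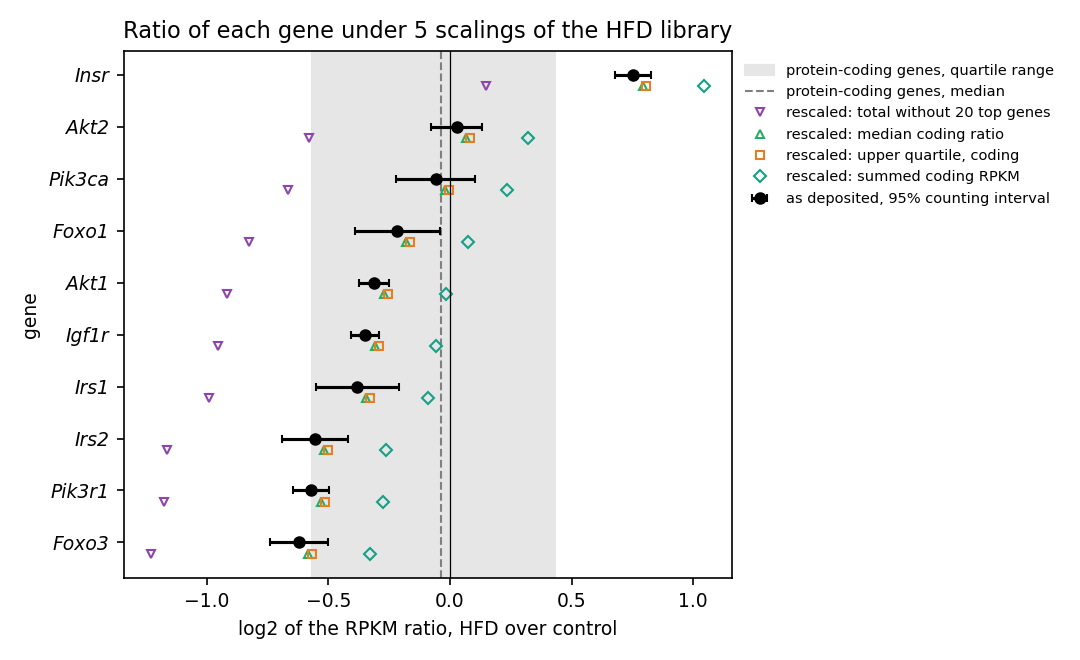
Log2 of the RPKM ratio, HFD over control, for the 10 genes (black, with 95% counting intervals) and the same ratio after each of 4 rescalings of the HFD library (open symbols); the grey band and dashed line are the quartiles and median of 9997 protein-coding genes as deposited. Insr is above 0 under each scaling shown, and Irs2, Pik3r1 and Foxo3 are below 0 under each.

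The ratios depend on the scale between the libraries. When the sums of RPKM outside the 20 top genes were made equal, HFD values shifted by -0.61 on the log2 scale and the median of all measured genes was -0.63, against -0.13 as deposited. Insr was then 1.11 times the control (1.05 to 1.17), Akt2 stood at 0.670 and Pik3ca at 0.631 times, and 9 of the 10 genes were lower, 3 of them over 2-fold on the log2(RPKM + 1) scale. Scaled to the summed RPKM of coding genes, the median of all measured genes was 0.12, Insr was 2.06 times the control, and 4 of the 10 genes were higher. Akt2 then stood at 1.25 and Pik3ca at 1.18 times the control. Intervals were rescaled for Insr only, so the interval counts given above hold for the deposited scale. Exon length moved with the ratio as well: the median log2 ratio was -0.19 in the shortest 10% of coding genes and 0.17 in the longest 10%, which hold Insr, Igf1r and Pik3r1. Set against the median of the 10% of coding genes of like length, Insr was higher by 0.58, while Igf1r was at -0.52, Pik3r1 at -0.74, Foxo3 at -0.64, Irs2 at -0.58 and Irs1 at -0.49. Foxo1 was at -0.33, Pik3ca at -0.17 and Akt2 at 0.01, and Akt1 was at -0.18 against -0.31 before. The part of length in the ratios was not tested beyond this.

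The wider pathway was read from 10 further lists with 151 genes, of which 137 were measured. On the log2(RPKM + 1) scale 6 of these (4.38%) were over 2-fold higher in HFD and 19 (13.9%) over 2-fold lower, and 12 of the 19 were listed at 0 in HFD, which places a gene past 2-fold by construction. Over all measured genes the shares were 12.5% and 23.9%, and over measured protein-coding genes 8.02% and 20.1%. The highest and lowest ratios named for each list are those among its genes listed in both libraries with at least 50 reads, and the most abundant genes are by the mean of both. By direction 60 of the 137 (43.8%) were higher in HFD and 77 (56.2%) lower, beside 44.0% and 56.0% of measured protein-coding genes. In the counts by list below, a gene listed at 0 in HFD is lower by construction. The median of the 137 was -0.11, the same to 2 decimals as that of measured protein-coding genes.

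The insulin genes Ins1 and Ins2 were listed at 0 in both libraries, that is at or below 1 RPKM, as were the islet hormone genes Iapp and Ppy. Igf1 was low, at 1.14 RPKM in HFD against 1.99 RPKM in the control, and Igf2 was listed at 0 in HFD against 1.10 RPKM. Of 8 measured ligands and binding proteins 6 were lower and 2 higher in HFD, with a median of -0.66. Of measured protein-coding genes 56.0% were lower. Igfbp2, which binds both IGFs, was the most abundant at 76.6 against 56.4 RPKM, a ratio of 1.36 (1.27 to 1.46). Igfbp7 stood at 4.83 against 23.9 RPKM, a ratio of 0.202 (0.165 to 0.248), Igfbp5 at 6.52 against 14.5 RPKM and Igfbp3 at 4.05 against 7.37 RPKM. These binding protein genes are widely expressed in stromal and vascular cells, whose marker sums above were also lower in HFD; their part was not tested. Igfbp6, at 2.69 against 1.82 RPKM, had the highest ratio, 1.48, with an interval that includes 1 (0.886 to 2.53).

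Other receptors and adaptors were mostly lower in HFD, 10 of 13 beside 56.0% of measured protein-coding genes, with a median of -0.51. The insulin receptor-related receptor gene Insrr, an alkali sensor of the same family that does not bind insulin, stood at 2.93 RPKM in HFD against 9.25 RPKM in the control, a ratio of 0.317 (0.278 to 0.361), the opposite direction to Insr. The adaptor genes Grb7 (16.2 against 23.9 RPKM), Grb2 (9.76 against 14.3 RPKM) and Sh2b1 (8.14 against 15.7 RPKM) were lower as well, and Irs4 was listed at 0 against 2.11 RPKM. Igf2r, which clears IGF2, was slightly higher at 21.6 against 19.9 RPKM, a ratio of 1.09 (1.03 to 1.15). The ubiquitin ligase gene Cblb had the highest ratio, 1.41 (1.27 to 1.56).

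Other PI 3-kinase genes were split, 4 higher and 5 lower, with a median of -0.26 that is 0.04 over the 8 listed in both libraries. The class II kinase gene Pik3c2a had the highest ratio, 1.84 (16.1 against 8.78 RPKM), and Pik3r5, a subunit of the leukocyte-type kinase, the lowest, 0.174 (1.11 against 6.37 RPKM). Pik3cb, the p110-beta catalytic subunit, stood at 5.65 against 3.63 RPKM, a ratio of 1.56 (1.36 to 1.79), beside 0.960 for Pik3ca. The p85-beta gene Pik3r2 stood at 22.9 against 17.7 RPKM, a ratio of 1.29 (1.19 to 1.41), beside 0.673 for Pik3r1. Pik3r4 (13.9 against 10.5 RPKM) and Pik3c3 (6.59 against 9.21 RPKM), partners in the class III kinase of autophagy, differed in direction.

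Among 13 measured phosphatase genes 6 were higher and 7 lower, with a median of -0.19. Ppp2ca, the catalytic subunit of PP2A, stood at 24.3 RPKM in HFD against 14.2 RPKM in the control, but its scaffold gene Ppp2r1a at 33.7 against 47.3 RPKM. The receptor phosphatase gene Ptprf (39.7 against 51.7 RPKM) and the 5-phosphatase gene Inppl1 (24.6 against 28.2 RPKM) were lower, and Inpp4a had the lowest ratio, 0.565 (0.498 to 0.642).

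Kinases around AKT were mostly higher in HFD, 7 of 9 beside 44.0% of measured protein-coding genes, with a median of 0.52. Sgk1, a kinase related to AKT that is activated through the same lipid and regulates ion transport, stood at 97.1 RPKM in HFD against 37.8 RPKM in the control, a ratio of 2.57 (2.44 to 2.70). Pdpk1, which phosphorylates AKT and SGK, stood at 11.3 against 7.56 RPKM, Prkci at 13.3 against 8.28 RPKM, and the pseudokinase gene Trib2 at 13.8 against 6.89 RPKM. Trib1 had the lowest ratio, 0.586 (0.501 to 0.687). Under the least favourable scaling the median of this list was 0.03.

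The mTOR list was balanced, with 8 of 17 higher and 9 lower and a median of -0.01. Mtor itself stood at 22.96 RPKM in HFD against 21.5 RPKM in the control, Tsc2 at 24.8 against 23.6 RPKM and the translation repressor gene Eif4ebp2 at 54.8 against 55.1 RPKM, all within a ratio of 0.994 to 1.07. Tbc1d7, a subunit of the TSC complex that restrains mTORC1, had the highest ratio, 2.43 (2.14 to 2.76), and Akt1s1, an mTORC1 inhibitor phosphorylated by AKT, the lowest, 0.477 (0.414 to 0.548). Rps6, the ribosomal protein phosphorylated by S6 kinase, stood at 45.2 against 63.4 RPKM.

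The list of AKT substrates and genes of glucose and lipid handling was also split, 7 of 15 higher and 8 lower. Slc2a4, the insulin-responsive glucose transporter, stood at 22.97 RPKM in HFD against 13.9 RPKM in the control, a ratio of 1.65 (1.49 to 1.83). Tbc1d4, the AKT substrate that controls its delivery to the membrane, had the highest ratio of the list, 1.69 (1.505 to 1.89), at 8.29 against 4.91 RPKM. The general glucose transporter gene Slc2a1 was slightly lower, at 18.8 against 21.02 RPKM, a ratio of 0.895 (0.819 to 0.977). The lipogenic genes Acly (38.4 against 55.1 RPKM) and Srebf1 (14.7 against 25.1 RPKM), which insulin raises in liver, were lower, and hexokinase gene Hk2 had the lowest ratio, 0.401 (0.352 to 0.458).

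Of 12 measured FOXO relatives and regulators 8 were higher and 4 lower, with a median of 0.16. Foxo4 stood at 8.93 RPKM in HFD against 8.35 RPKM in the control, a ratio of 1.07 whose interval includes 1 (0.934 to 1.23), beside 0.859 for Foxo1 and 0.650 for Foxo3. The 14-3-3 genes, whose proteins hold phosphorylated FOXO in the cytoplasm, went both ways: Ywhab stood at 77.8 against 45.4 RPKM and Ywhaz at 65.6 against 52.8 RPKM, but Ywhae at 95.4 against 142 RPKM and Ywhag at 16.7 against 20.2 RPKM. Sirt1, a deacetylase of FOXO, had the highest ratio, 2.45 (2.02 to 2.98).

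Genes known as FOXO targets in other tissues numbered 25 measured, of which 7 were higher and 18 lower, 5 of them listed at 0 in HFD. Among measured protein-coding genes 44.0% were higher and 56.0% lower. The median of the 25 targets was -0.16, beside -0.11 for measured protein-coding genes, and 0.10 when scaled to the summed RPKM of coding genes. The most abundant by the mean of both libraries were Txnip, at 345 RPKM in HFD against 105 RPKM in the control (ratio 3.28, 3.16 to 3.40), Selenop (listed as Sepp1, a selenium transport protein) at 294 against 221 RPKM, Cat at 136 against 62.9 RPKM and Txnrd1 at 31.04 against 52.5 RPKM. Txnip, which limits glucose uptake, and the catalase gene Cat are regulated by other factors too. Among those listed in both libraries, the atrophy gene Fbxo32 had the lowest ratio, 0.346 (0.286 to 0.419). The fasting gene Pdk4 was listed at 0 against 3.08 RPKM, and Pck1 and G6pc, the gluconeogenic FOXO1 targets of liver, were listed at 0 in both libraries.

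The RAS and ERK branch, the other arm of receptor signalling, was balanced at 8 of 16 higher and 8 lower. Dusp6, a phosphatase of ERK induced by ERK activity, had the highest ratio, 3.17 (2.88 to 3.49), at 48.7 RPKM in HFD against 15.4 RPKM in the control, and Hras the lowest, 0.425 (0.377 to 0.480). Mapk3, which encodes ERK1, stood at 42.3 against 67.9 RPKM and Map2k2 at 31.3 against 33.7 RPKM.

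**Figure D4:**
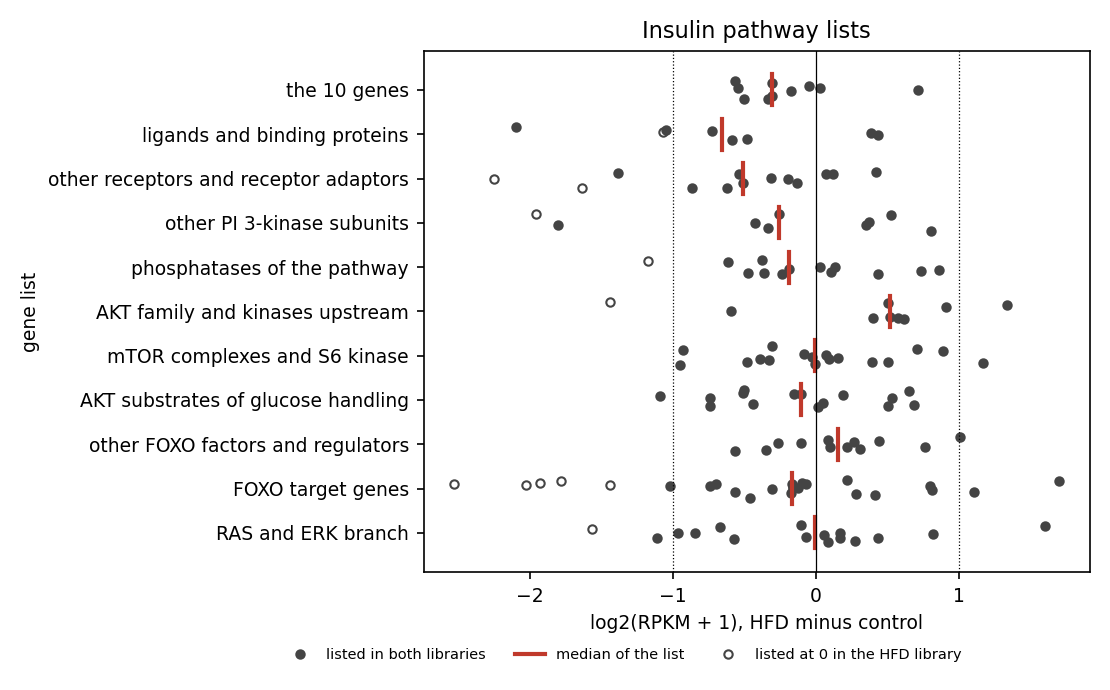
Log2(RPKM + 1) in HFD minus control for each measured gene of the 10 genes and the 10 wider lists; filled points are listed in both libraries, open points are listed at 0 in HFD, red lines are list medians and dotted lines mark 2-fold. The median of the list labelled AKT family and kinases upstream, which also holds Sgk and Trib genes, is 0.52. Those of receptor adaptors and of ligands are -0.51 and -0.66. The list labelled AKT substrates of glucose handling also holds other genes of glucose and lipid handling.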

How the data were processed

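Each of the 2 libraries, 1 per diet, had total RNA prepared from sorted cells, ribosomal RNA removed and Ion Torrent libraries made, per the labels' protocols. Genome build mm10 and bedtools 2.25.0 are named, per the submitters' processing notes; no source used here gives the aligner, counting rule, use of strand or annotation. The deposited values are log2 of RPKM, as judged from the values: genes at or below 1 RPKM are listed as 0, and no pseudocount was added. For single-exon genes RPKM times length fell on whole multiples of a step (within 0.005 of a step, at 12 steps or fewer, for 94 of 189 values in HFD and 259 of 725 in the control), which gave a depth of 25.49 M and 9.84 M reads.

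Symbols, coordinates and exon lengths came from GENCODE M21 (GRCm38, equal to mm10), which held 36308 of the identifiers. Promoter windows came from RefSeq (GRCm38.p6); 9 of the 10 genes matched, all but Insr, and proteins were not used here. Ratios are of RPKM as deposited; list medians use log2(RPKM + 1), which understates low genes. Intervals are exact conditional binomial, on reads obtained by multiplying RPKM, summed exon length and depth, and for pairs of genes from a normal approximation on the log scale. They are approximate, and cover counting error only, since reads are not independent molecules. With 1 library per group no p-value was computed. Genes named were the 10, and in each wider list the 4 most abundant, the extremes of the ratio among genes of 50 or more reads, and a few fixed names (some of these genes are not reported here); in each marker list the 2 most abundant. Members and lists were chosen with earlier results of these data known. Calculations (Python 3.11.15, scipy 1.17.1) were tested on simulated data. Alternatives covered 4 scalings, pseudocounts, minimums, the entry of a 0 and, added after the data were seen, centring by exon length.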

Additional observations from a re-analysis of the deposited data

How the results depend on the processing

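No paired analysis was possible because there is 1 library per group, and no replicate could be left out. Insr (0.14 to 0.99 on the log2 scale over the alternatives) kept its direction under each alternative tried. So did Igf1r (-0.89 to -0.05), Irs1, Irs2, Pik3r1, Akt1 and Foxo3. Only the rescalings and the centring by exon length could reverse a direction, because all 10 genes are listed in both libraries. The other settings add no separate support. Scaled to the summed RPKM of coding genes, Akt1 stood at only -0.02 and Irs1 at -0.07, and their counting intervals were not rescaled. Pik3ca and Foxo1 stood higher, at 0.20 and 0.06, when scaled to the summed RPKM of coding genes, and Akt2 lower, at -0.53, when the sums outside the 20 top genes were made equal. The change in each of the 5 pair proportions kept its direction in all 42 alternative values. The settings alter it only through the pseudocount, so this count adds no separate support. For Irs2 over Irs1 the interval of the change includes 1. The median of the 10 genes, -0.31 on the log2(RPKM + 1) scale, was -0.83 and the number over 2-fold lower was 3 when those sums were made equal. The median was -0.035 when scaled to the summed RPKM of coding genes. Of the wider genes, equal sums outside the 20 top genes gave 2 over 2-fold higher and 43 lower, and summed coding RPKM gave 15 higher and 15 lower. The number over 2-fold lower was 6 where 5 RPKM in a library was required, and 10 where only genes listed in both libraries were counted and no pseudocount was used. Of the 10 wider lists, 3 kept the sign of their median throughout: the kinases around AKT (0.03 to 0.79), ligands and binding proteins (-1.05 to -0.42) and receptors and adaptors (-1.05 to -0.24). The other 7 changed sign under at least 1 alternative, so their counts and medians above hold only for the scale and settings used there. A length cancels in a ratio between the libraries, so lengths of the longest transcript in place of all exons could not alter the ratios. They changed the interval of Insr to 1.58 to 1.79. Depth limits the control library more: Foxo1 rested there on about 383 reads, against 854 in HFD.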

Other observations

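Besides Irs1 and Irs2, windows of 7 members (all others but Insr) were read. Igf1r had 48 CpG dinucleotides in its 300-base window, more than 98.8% of all windows, and Foxo3 and Foxo1 had 35 and 31, beside a median of 7 over all windows. The Akt1 windows had 42 and 8, the Pik3r1 windows 34 and 6, the Pik3ca window 20, and the Akt2 windows 12, 5, 2 and 0. Neither the Igf1r nor the Foxo3 window held the FOXO core on either strand, and the Foxo1 window held it once, at -196. The longer letters GTAAACA or TGTTTAC were found among the members in 1 of 2 Akt1 windows. CACGTG was found in the windows of Irs1 and Irs2 and in none of the other 12 windows of the members. These are matches of letters in these windows, with no value of the libraries behind them.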
